A study of Mus musculus with 10 samples.

Results

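Trio, Kalrn and the genes that turn Rac1 on and carry its signal in neurons are described here in the cortex of 5XFAD mice with and without a neuronal deletion of Idol. The set holds 10 genes of the 53700 gene identifiers in the deposited counts, and all 10 were among the 19268 genes tested. They were found by their Ensembl identifiers, matched to gene symbols with the GENCODE annotation. The set was chosen on these same libraries, around Trio, a gene that differs between the groups here, so the differences between the groups are a description of the 10 genes. Calls from the tests over all genes are counted for the set, and nothing rests on them. The set also holds Kalrn, the closest relative of Trio, Rac1 itself, the exchange factors Tiam1, Tiam2, Arhgef7, Dock3 and Dock4, and the kinases Pak1 and Pak3.

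Rac1 is a small GTPase that switches between an inactive form bound to GDP and an active form bound to GTP. Guanine nucleotide exchange factors load it with GTP, GTPase-activating proteins return it to the inactive form, and active Rac1 drives actin branching through the WAVE and Arp2/3 complexes and restrains actin disassembly through PAK, LIM kinase and cofilin. In cortical neurons this pathway shapes growth cones, dendrites and dendritic spines, and several of its exchange factors sit at the postsynaptic density next to glutamate receptors.

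RNA was measured in the cortex of 10 female mice aged 4 months. The labels mark 5 of them as cKO, here called 5XFAD;Neu cKO, and 5 as WT, here called 5XFAD. The authors describe their 5XFAD controls as littermates. All 10 carry the 5XFAD transgenes, a model of amyloid deposition, expressed in neurons from Thy1 sequence. In the 5XFAD;Neu cKO mice Cre, driven by the Camk2a promoter, deletes floxed Idol, and this promoter is active in excitatory neurons of the forebrain, so glia and most inhibitory neurons of the same tissue keep the gene. Whether the control mice carried the floxed allele without Cre was not given in the sources used here.

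Each library gave 4320504 to 7466192 reads on genes. Reads start near the 3′ end of each transcript, so a count does not grow with transcript length and the levels of different genes can be set side by side as CPM, that is, counts scaled to a common library size with TMM factors. Mylip, the gene for IDOL, had 45 to 108 counts in the 5XFAD libraries and 50 to 148 in the 5XFAD;Neu cKO libraries (11.2 ± 2.27 and 14.8 ± 4.90 CPM, SD, n = 5 per group), so Mylip was not lower where the labels put its deletion, and the groups are named as the libraries were labelled. The counts are summed over the whole gene and do not show which part of it was read. Slc17a7, a glutamate transporter of excitatory neurons, was at 178.1 ± 3.83 CPM in 5XFAD;Neu cKO and 186.2 ± 18.6 CPM in 5XFAD, and Gad1, which makes GABA in inhibitory neurons, at 187.2 ± 20.8 and 160.1 ± 30.8 CPM (SD, n = 5 per group). The share of kept reads that fell on no gene was 31.3% to 39.9% in 5XFAD and 34.4% to 38.2% in 5XFAD;Neu cKO, and it was highest in 5XFAD replicate 5 and 5XFAD;Neu cKO replicate 2.

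Because only the ends of transcripts were read, the annotated ends of the 10 genes are given first. On GRCm39, Trio lies on the minus strand at chr15:27730737-28026029, and its canonical transcript has 57 exons. Kalrn lies on the minus strand at chr16:33789443-34393902, and its canonical transcript has 60 exons. Rac1 is the short gene of the set, with 25.1 kb at chr5:143489389-143514493, while the other 9 genes span 108.1 to 604.5 kb. Dock3, Kalrn and Trio have protein-coding transcripts that end far apart, over 320.3, 208.9 and 172.2 kb, at 8, 7 and 6 places more than 50 bases from each other, and the counts sum over these ends. Rac1 and Dock4 have 1 such place each. The following 30-base stretches at the ends of the canonical transcripts are shown because a 3′ library reads a transcript next to its poly(A) site, and they hold that site's signal for 1 annotated end of each gene. Which of a gene's ends were read is not seen in the counts. They are written 5′ to 3′ in the direction of the transcript, and capitals mark the poly(A) signal, AATAAA or ATTAAA, found within the last 50 bases.
Trio: ttattttaaaaaATTAAAcatatttgcctg
Tiam1: tgcctgtccaacAATAAAagtactgaaaag
Tiam2: ttgagaacaatcATTAAAatcaaacatatg
Arhgef7: ctgtacagttgaAATAAAttttgcatttgc
Dock3: gctgtgatgtgaATTAAAgatgaatacctg
Pak1: tagtttagatatacATTAAAagaacttagc
Pak3: taaagtattgcaAATAAAacgacaaacatc

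These stretches lie in the last exons, in the 3′ untranslated regions, at chr15:27730738-27730767 for Trio, chr16:89584001-89584030 for Tiam1 and chr9:106770031-106770060 for Dock3, all on the minus strand. On the plus strand they lie at chr17:3572053-3572082 for Tiam2, chr8:11877118-11877147 for Arhgef7, chr7:97562103-97562132 for Pak1 and chrX:142580757-142580786 for Pak3. Trio, Tiam2, Dock3 and Pak1 carry ATTAAA there, and Tiam1, Arhgef7 and Pak3 carry AATAAA. For Kalrn, Rac1 and Dock4 neither hexamer was found in the last 50 bases of the canonical transcript, which says only that these letters are not in this window. The last 1000 bases of Rac1 overlap exons of Daglb on the opposite strand, those of Tiam2 overlap Tfb1m, and those of Dock3 overlap 4930524O07Rik. The strand setting of the counting was not given in the sources used here, so the values of these 3 genes are uncertain to that extent.

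Trio stood higher in 5XFAD;Neu cKO than in 5XFAD. Its exchange domains act on Rac1 and RhoG and on RhoA, and it takes part in axon guidance and in the build-up of glutamate synapses. Its counts were 684, 342, 969, 698 and 519 in 5XFAD replicates 1 to 5, while those in 5XFAD;Neu cKO replicates 1 to 5 were 763, 782, 1325, 1003 and 1149. Scaled, these were 132.6, 80.2, 131.6, 130.1 and 116.5 CPM in 5XFAD and 142.6, 143.8, 173.9, 168.8 and 165.1 CPM in 5XFAD;Neu cKO. All 5 libraries of 5XFAD;Neu cKO lay above all 5 of 5XFAD, with the lowest value in 5XFAD replicate 2. The means were 158.8 ± 14.6 and 118.2 ± 22.2 CPM (SD, n = 5 per group), which the edgeR fit gave as a log2 fold change of 0.42 (standard error 0.10), or 1.34-fold. Without 5XFAD replicate 2 the log2 fold change was 0.31. These are the values for which Trio was chosen.

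Kalrn, which encodes kalirin, an exchange factor related to Trio and a main Rac1 activator of spines in mature cortex, was the most abundant of the 10. Its level was 357.7, 357.6, 335.5, 355.7 and 442.3 CPM in 5XFAD replicates 1 to 5 and 348.3, 395.1, 342.0, 431.3 and 396.0 CPM in 5XFAD;Neu cKO replicates 1 to 5. The groups overlapped, and the highest library of all was 5XFAD replicate 5, whose share of reads on no gene was also the highest, at 39.9%. The log2 fold change was 0.05 (standard error 0.08), and its 95% interval ran from -0.11 to 0.21.

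**Figure D1:**
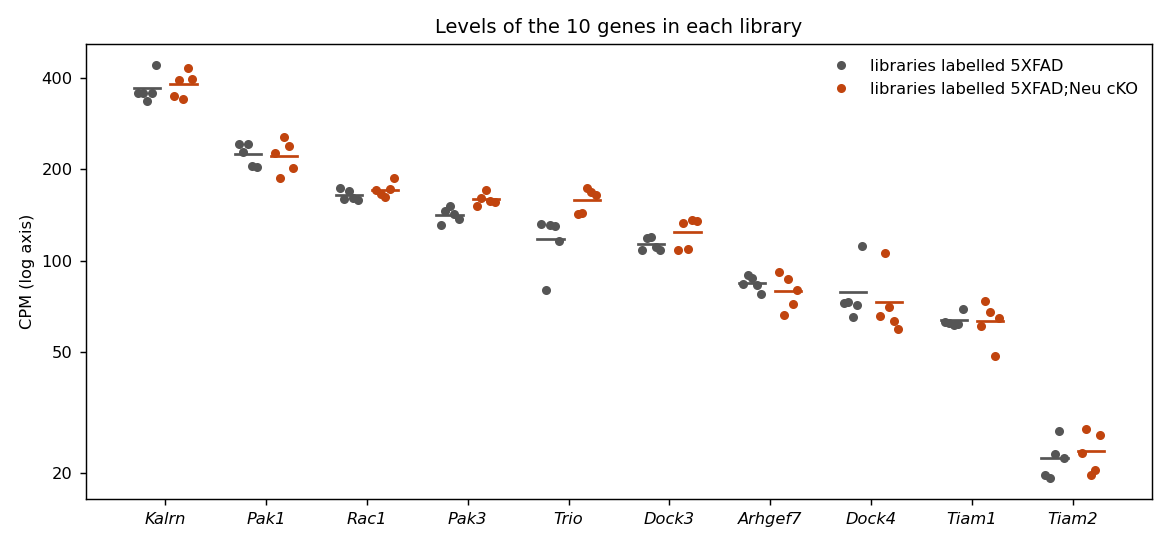
Level of each of the 10 genes in every library, in CPM on a log axis, with genes ordered by mean level; each point is 1 library and each line the mean of 5. The groups of Trio do not overlap, those of Pak3 touch, and single high libraries stand out in Kalrn and Dock4.

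The other exchange factors showed overlapping groups. Tiam1, a Rac exchange factor that couples NMDA and EphB receptors to Rac1, was at 63.1 ± 9.34 CPM in 5XFAD;Neu cKO and 63.7 ± 3.31 CPM in 5XFAD (SD, n = 5 per group), a log2 fold change of -0.01 with a 95% interval of -0.25 to 0.22. Its relative Tiam2 was the lowest of the 10, at 23.7 ± 3.66 and 22.4 ± 3.33 CPM (SD, n = 5 per group), where the log2 fold change was 0.07 and its interval -0.27 to 0.42. At 82 to 186 counts per library, Tiam2 has the widest interval of the set.

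Arhgef7 encodes beta-PIX, which binds PAK and GIT proteins and brings Rac1 activation to the place where PAK sits. It was at 79.6 ± 10.4 CPM in 5XFAD;Neu cKO and 84.6 ± 4.65 CPM in 5XFAD (SD, n = 5 per group). Its log2 fold change was -0.09, with an interval of -0.30 to 0.13. The values ran from 66.4 to 91.6 CPM in 5XFAD;Neu cKO and from 77.9 to 90.1 CPM in 5XFAD, so the range of the former covered that of the latter.

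Dock3 and Dock4 belong to a separate family of exchange factors, which load Rac through a DOCK domain and pair with ELMO proteins. Dock3, found mostly in neurons, was at 108.9, 119.2, 119.4, 110.9 and 108.6 CPM in 5XFAD replicates 1 to 5 and at 108.2, 133.4, 109.0, 136.1 and 134.7 CPM in 5XFAD;Neu cKO replicates 1 to 5. Replicates 2, 4 and 5 of 5XFAD;Neu cKO lay above every 5XFAD library, replicate 3 within their range and replicate 1 just below it. The log2 fold change was 0.13 with an interval of -0.06 to 0.32. The gene 4930524O07Rik, opposite the end of Dock3, had 8 counts in 5XFAD;Neu cKO replicate 5 and 0 in the other 9 libraries.

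Dock4 was at 72.9, 73.2, 65.3, 71.4 and 111.8 CPM in 5XFAD replicates 1 to 5 and at 65.6, 106.5, 70.4, 63.3 and 59.5 CPM in 5XFAD;Neu cKO replicates 1 to 5. One library in each group, 5XFAD replicate 5 and 5XFAD;Neu cKO replicate 2, stood far above the others, and these are the libraries with the most reads on no gene. The log2 fold change was -0.11 (standard error 0.13). It was -0.28 without 5XFAD;Neu cKO replicate 2 and 0.05 without 5XFAD replicate 5, so the direction rests on which of these libraries is present.

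Rac1, the GTPase that all of these factors act on, was nearly level across the 10 libraries. It was at 174.0, 159.3, 169.1, 161.4 and 158.0 CPM in 5XFAD replicates 1 to 5 and at 170.5, 165.4, 162.8, 172.0 and 187.9 CPM in 5XFAD;Neu cKO replicates 1 to 5. Only 5XFAD;Neu cKO replicate 5 lay outside the range of the 5XFAD libraries. The log2 fold change was 0.06, with an interval of -0.11 to 0.23. Daglb, whose exons lie opposite the end of Rac1, had 106 to 252 counts per library against 679 to 1308 for Rac1.

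Pak1 and Pak3 are serine and threonine kinases that active Rac1 and Cdc42 switch on, and they pass the signal to LIM kinase and cofilin. Pak3, whose human counterpart is an X-linked gene of intellectual disability, was at 131.2, 146.2, 151.9, 142.6 and 136.9 CPM in 5XFAD replicates 1 to 5 and at 151.8, 161.5, 171.5, 156.8 and 156.0 CPM in 5XFAD;Neu cKO replicates 1 to 5. The groups overlapped by a single pair of values, the lowest 5XFAD;Neu cKO library at 151.8 CPM and the highest 5XFAD library at 151.9 CPM. The log2 fold change was 0.17 (standard error 0.09), or 12.5%, and its interval reached just below 0.

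Pak1 was at 242.6, 228.1, 243.0, 204.9 and 202.9 CPM in 5XFAD replicates 1 to 5 and at 225.8, 188.0, 256.3, 238.1 and 202.0 CPM in 5XFAD;Neu cKO replicates 1 to 5. The highest and the lowest of the 10 values both came from 5XFAD;Neu cKO. The log2 fold change was -0.01 with an interval of -0.19 to 0.16, and its sign changed in 4 of the 10 fits that left out 1 library.

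**Figure D2:**
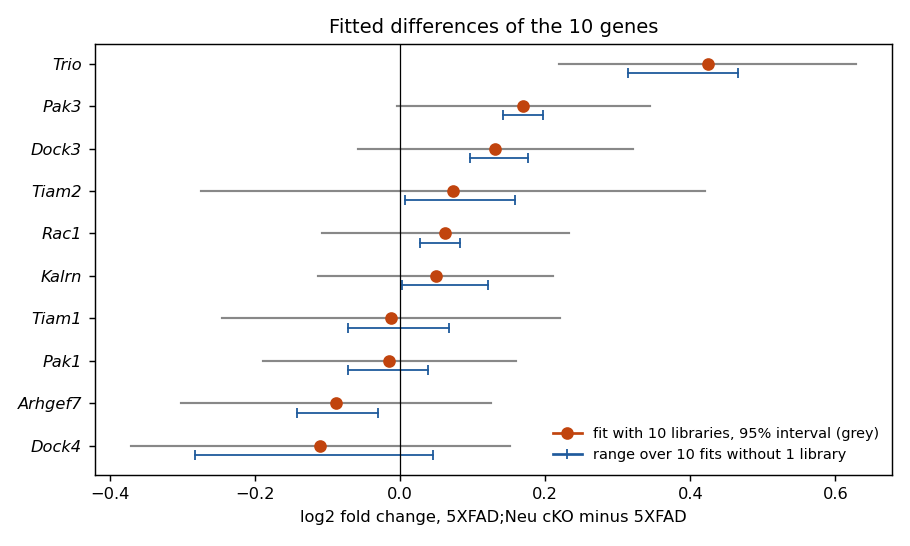
Fitted log2 fold change of each gene, 5XFAD;Neu cKO minus 5XFAD, with its 95% interval in grey and, in blue, the range over 10 edgeR fits that each left out 1 library. Trio stays between 0.31 and 0.47 in these fits, Pak3 and Dock3 stay above 0, and Dock4, Pak1 and Tiam1 lie on both sides of 0.

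Counted over the set, 6 of the 10 genes were higher and 4 lower in 5XFAD;Neu cKO, and their log2 fold changes had a median of 0.06, beside a median of -0.00056 and 49.9% higher over all 19268 genes tested. The median of the 10 was 0.03 without 5XFAD replicate 1, without 5XFAD replicate 2, without 5XFAD;Neu cKO replicate 5 or with the share of reads on no gene as a term, and 0.08 without 5XFAD;Neu cKO replicate 3. By the quasi-likelihood test of edgeR, adjusted after Benjamini and Hochberg, none of the 10 had an adjusted p under 0.05, where 0.0571% of all genes were called higher and 0.161% lower. At an unadjusted p under 0.05 there was 1 of the 10, Trio, beside 7.95% of all genes. In DESeq2's Wald test 1 of the 10 passed, again Trio, beside 1.25% of the 5820 genes that this test gave an adjusted p. The groups did not overlap in 1 of the 10, beside 1.3% of all genes. Since the set was chosen around Trio, nothing is read from these counts. Each library stands for 1 mouse, so the spread behind these tests is that between mice.

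In cortex as a whole, fewer cells of a type and less RNA per cell cannot be told apart. Summed over the 10 genes, the level was 1389 to 1508 CPM in 5XFAD;Neu cKO and 1336 to 1447 CPM in 5XFAD. The means of these sums differed by 76.9 CPM, of which Trio made up 40.6 CPM and Pak3 17.8 CPM. The summed markers of excitatory neurons were at 2294 to 2663 CPM in 5XFAD;Neu cKO and 2306 to 2784 CPM in 5XFAD, with 5 of 9 genes higher and a median of 0.02 for their log2 fold changes. Those of inhibitory neurons were at 542 to 705 and 569 to 684 CPM, with 4 of 8 higher and a median of 0.01. Single genes of this list ran from -0.42 to 1.04. Of the 8, 3 had an unadjusted p under 0.05 in edgeR, beside 7.95% of all genes, and none had an adjusted p under 0.05. None of these neuronal markers was at 0 in any library, and the ranges of both sums overlapped between the groups. Markers of microglia moved with the labels, with 10 of 10 lower in 5XFAD;Neu cKO, 4 of them at an adjusted p under 0.05 in edgeR (Cx3cr1, log2 fold change -0.51, adjusted p = 0.0232), and sums of 253 to 299 CPM against 332 to 488 CPM. No microglial marker was at 0 in any library, and the part of this difference in the values of the 10 genes was not tested.

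By mean level the genes ran from Kalrn through Pak1, Rac1, Pak3, Trio, Dock3, Arhgef7, Dock4 and Tiam1 to Tiam2, in the same order in both groups. Against all genes tested their mean levels lay between the 70.3rd percentile for Tiam2 and the 98.8th for Kalrn. Some steps of this order held in every library and others did not. Kalrn was above Pak1, Pak1 above Rac1, Dock3 above Arhgef7 and Tiam1 above Tiam2 in all 10 libraries, with mean log2 ratios of 0.75, 0.40, 0.53 and 1.47. Pak3 and Trio were not separated, with Pak3 higher in 6 of 10 libraries. The mean log2 ratio of Pak3 to Trio was 0.28 in 5XFAD and 0.01 in 5XFAD;Neu cKO. The 5XFAD mean includes the highest single value, 0.87, from replicate 2, where Trio was lowest. Rac1 was above Pak3, Trio above Dock3 and Dock4 above Tiam1 in 9 of 10 libraries each, and Arhgef7 above Dock4 in 8 of 10.

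Set against its partners within each library, Trio amounted to 0.837 to 1.07 counts per count of Rac1 in 5XFAD;Neu cKO and 0.504 to 0.806 in 5XFAD, so that these ratios did not overlap. Against Kalrn it amounted to 0.364 to 0.509 counts per count in 5XFAD;Neu cKO and 0.224 to 0.392 in 5XFAD, and these did. Of the 9 ratios of Trio to another gene of the set, 1 was apart between the groups. The set was chosen around Trio for its values in these libraries, so the ratios restate that difference. How many ratios of Trio to genes outside the set are apart was not counted, and nothing is read from this.

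The genes also differed in how much their libraries varied within a group. For Rac1 the SD of log2 CPM within groups was 0.071, smaller than in all but 2.95% of the 712 genes of like level, and for Pak3 it was 0.075, with 3.56% of 814 such genes below it. For Trio it was 0.24, larger than in 94.5% of 885 genes of like level, with 0.31 in 5XFAD and 0.13 in 5XFAD;Neu cKO. Within 5XFAD, replicate 2 was lowest at a log2 CPM of 6.33, while replicates 1, 3, 4 and 5 lay at 6.87 to 7.05. The large spread of Trio in 5XFAD thus rests largely on 1 library. Dock4 varied most, with an SD of 0.32, larger than in 97.9% of 1588 genes of like level. Genes of like level are those within 0.5 log2 units of the gene's mean.

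Variation within groups was then compared with that of Trio. After removal of the group means, the correlation of log2 CPM with Trio over the 10 libraries ran from an r of -0.22 for Dock4 to 0.36 for Rac1. By Spearman's rank correlation the highest was 0.55 for Pak1. None of the 9 relations passed correction, with smallest adjusted p-values of 0.897 for r and 0.762 for the rank correlation (100000 permutations within groups, two-sided). When the 2 libraries farthest from the median of Trio, 5XFAD replicate 2 and 5XFAD;Neu cKO replicate 3, were left out, r became 0.69 for Rac1 and -0.75 for Dock4, so these relations rest on which libraries are present. Over all 45 pairs of the 10 genes r ran from -0.81 to 0.64, with a median of -0.045, and it was above 0 in 19.

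Among 6258 genes with a mean of at least 20 CPM, those whose pattern over the 10 libraries was most like that of Trio, by Pearson's r after removal of the group means, were Slc25a22 with 0.972, Hnrnpa2b1 with 0.970, Atp13a1 with 0.956, and Pacsin1 and Pttg1 with 0.955 each. Slc25a22 encodes a mitochondrial glutamate carrier, Hnrnpa2b1 an RNA-binding protein and Pacsin1 a neuronal protein of membrane recycling. The values share the low library 5XFAD replicate 2. Without it they were 0.885, 0.898, 0.881, 0.825 and 0.834. They describe the 5 highest of many and carry no test.

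The level of each of the 10 genes was set against the share of reads on no gene. Over the 10 libraries r was -0.71 for Pak1, 0.69 for Dock4 and 0.60 for Tiam2, and Spearman's rank correlations were -0.73, 0.26 and 0.71. With the group means removed, r was -0.71, 0.74 and 0.59. The raw p-values by r were 0.0216, 0.0300 and 0.0669, and adjusted over the 10 genes they were 0.150, 0.150 and 0.192 (100000 permutations, two-sided). By rank the adjusted p was 0.136 for Pak1 and Tiam2 and 0.675 for Dock4, so no gene passed correction. Leaving out 5XFAD replicates 5 and 2, which lie farthest from the median share, gave r of -0.85 for Pak1, 0.64 for Dock4 and 0.78 for Tiam2. Kalrn, Arhgef7 and Tiam1 had r of 0.57, -0.56 and 0.46, and Trio had 0.26, falling to 0.02 without those libraries. In the fit with this share as a further term, the log2 fold change of Trio was 0.42 and that of Pak1 was 0.02.

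**Figure D3:**
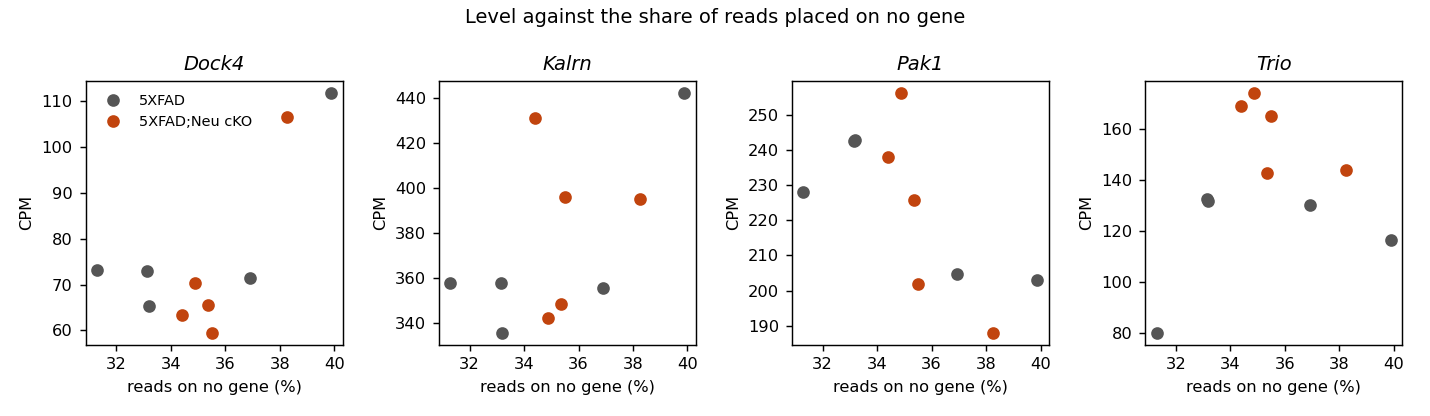
Level of Dock4, Kalrn, Pak1 and Trio in CPM against the share of kept reads that fell on no gene, in percent; each point is 1 library, coloured by label. Dock4 is high in the 2 libraries with the highest shares, Pak1 falls as the share rises, and Trio has an r of 0.26 with it.

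The wider pathway was taken as 7 lists with 145 different genes besides the 10, all of them tested. Of these 145, 78 were higher and 67 lower in 5XFAD;Neu cKO, and the median of their log2 fold changes was 0.03. None had an adjusted p under 0.05 in edgeR, and none of the 92 that DESeq2 gave an adjusted p had one under 0.05. In edgeR 17 (11.7%) had an unadjusted p under 0.05, beside 7.95% of all genes and 11.4% of the genes with a mean of 20 CPM or more. The groups did not overlap in 6 (4.14%), beside 1.3% and 2.16%. The genes named below had adjusted p-values of 0.300 to 0.771 in edgeR, so their values are given and no change is called.

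Of 28 other exchange factors, 19 were higher and 9 lower, with a median of 0.12. Arhgef2, a RhoA exchange factor bound to microtubules, was at 89.0 ± 3.58 CPM in 5XFAD;Neu cKO and 71.3 ± 5.73 CPM in 5XFAD (SD, n = 5 per group), without overlap. Arhgef25, which is related to the RhoA-directed domain of Trio, had 0.28 (standard error 0.13) as its log2 fold change. Rasgrf1, which links calcium to Ras and Rac, was at 140.1 ± 12.8 and 167.6 ± 23.1 CPM, a log2 fold change of -0.26.

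Among 24 GTPase-activating proteins and GDIs, which hold Rac1 and related GTPases inactive, 11 were higher and 13 lower, with a median of -0.02. Chn1, which encodes the Rac-directed chimaerin of neurons, was at 621.5 ± 34.8 CPM in 5XFAD;Neu cKO and 533.0 ± 55.1 CPM in 5XFAD (SD, n = 5 per group), with overlap. Arhgap5 and Arhgap32 had log2 fold changes of -0.20 and 0.17.

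Downstream, 11 of 19 PAK partners and cofilin genes were higher and 8 lower, with a median of 0.07, and 18 of 23 genes of the WAVE and Arp2/3 branch were higher and 5 lower, with a median of 0.06. Pak6, a kinase related to Pak1 and Pak3, was at 23.2 ± 7.76 CPM in 5XFAD;Neu cKO and 15.3 ± 2.07 CPM in 5XFAD (SD, n = 5 per group), and Pak5 at 106.0 ± 6.92 and 94.3 ± 6.34 CPM, without overlap. Limk1, the kinase that PAK activates to restrain cofilin, had -0.34 (standard error 0.17) as its log2 fold change. Actr2, a core subunit of Arp2/3, was at 132.8 ± 13.5 and 108.9 ± 12.3 CPM, and Abi2 and Wasf1, subunits of the WAVE complex, had log2 fold changes of 0.16 and 0.24.

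Of 20 receptors and scaffolds that act upstream of Rac1 at synapses, 8 were higher and 12 lower, with a median of -0.04. The log2 fold change was -0.26 ± 0.11 for Ephb1, an ephrin receptor, -0.28 ± 0.13 for Cdh2, which encodes N-cadherin, and -0.13 ± 0.07 for Ntrk2, the BDNF receptor (± standard error).

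**Figure D4:**
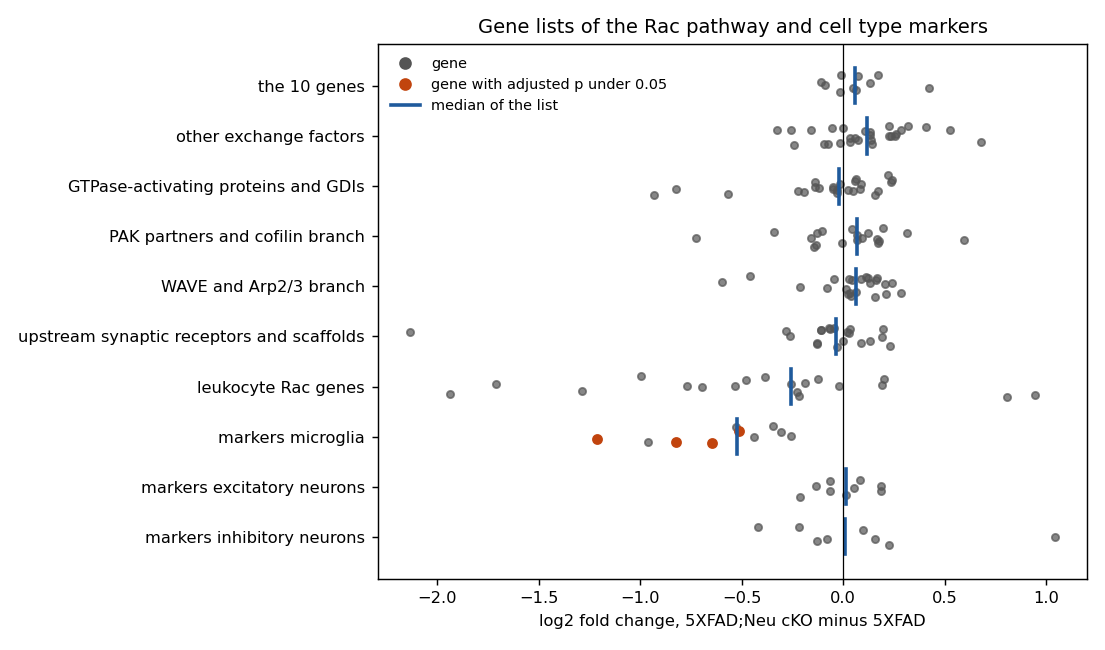
Log2 fold change, 5XFAD;Neu cKO minus 5XFAD, of each gene in the set, 6 pathway lists and 3 lists of cell type markers; each point is 1 gene, the blue line is the list's median and orange marks an adjusted p under 0.05 in edgeR. The pathway lists shown and the neuronal markers hold no orange point, and the microglial markers lie below 0.

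The Rac genes of leukocytes lay lower, with 15 of 19 below 0 and a median of -0.26. Cyba, a subunit of the NADPH oxidase that Rac controls in phagocytes, was at 2.68 ± 1.19 CPM in 5XFAD;Neu cKO and 6.57 ± 2.43 CPM in 5XFAD (SD, n = 5 per group), without overlap, at 8 to 28 and 21 to 54 counts per library. Vav1, an exchange factor of blood cells, had 0 to 9 and 2 to 23 counts, and Arhgap45 was at 1.38 ± 0.434 and 2.77 ± 1.14 CPM. The summed level of this list was 38.2 to 65.8 CPM in 5XFAD;Neu cKO and 56.1 to 80.2 CPM in 5XFAD, and 4 of its genes were at 0 in at least 1 library. The microglial markers given above were lower in the same libraries, and their part in this list was not tested.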

How the data were processed

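The authors prepared QuantSeq 3′ libraries from cortical RNA, ran them with single-end reads, removed adapter and poly(A) sequence with bbduk, mapped the reads to GRCm39 with STAR 2.7.3a and counted them per Ensembl gene with HTSeq (version 0.9.1 per the submitters' processing notes). For HTSeq the authors' published methods name a later version than these notes. The deposited values are raw counts per gene and library, with no normalization. Rows that name no gene entered neither library sizes nor tests. The share of kept reads on no gene was 31.3% to 39.9%. Symbols came from GENCODE vM39, a later annotation of the same build, which named 52610 of 53700 identifiers and was also used for transcript ends.

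Genes counted 10 times or fewer in total were left out, and 19268 remained. The test was that of edgeR 4.0.16 in R 4.3.3 (quasi-likelihood test, TMM, label as the only term, Benjamini-Hochberg adjustment over all genes tested, threshold 0.05). DESeq2 1.42.0, the tool that the authors used, was an alternative. The 95% intervals are the edgeR log2 fold change and its standard error on a normal scale. Log2 CPM used a prior count of 2. The members and gene lists were chosen with earlier results of these data known. Genes named from a pathway list are those with the smallest unadjusted p in it, up to 3. Mylip, the cell type markers Slc17a7, Gad1 and Cx3cr1, and the 5 genes most correlated with Trio are named as well. One pathway list, which enters the count over all lists, is not reported here on its own.

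No pair of libraries within a group was a repeat, since chi-square per degree of freedom was at least 5.70 in the 20 pairs. Alternatives were DESeq2, its size factors, filterByExpr, no filter, a robust fit, no mitochondrial genes, a replicate block and each library left out in turn. The share of reads on no gene was added as a further term after seeing the data.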

Additional observations from a re-analysis of the deposited data

Results flagged for a closer look

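In each group of 5 libraries, the highest and the lowest value of each of the 10 genes were compared with the next value by Dixon's ratio, which has a critical value of 0.71 for 5 samples. Of the 20 groups tested, 4 held a library apart, where chance gives about 1 in 20 for independent, normally distributed values. The genes share the same libraries, so the 20 groups are not independent. The share of all genes with a library apart was not counted, so no excess is read from this count. In all but 1 of the 4 the library was 5XFAD replicate 5. In it Kalrn was at 442.3 CPM, with the others at 335.5 to 357.7 CPM, Tiam1 at 69.6 CPM, with the others at 61.5 to 62.8 CPM, and Dock4 at 111.8 CPM, with the others at 65.3 to 73.2 CPM. In 5XFAD;Neu cKO replicate 2, Dock4 was at 106.5 CPM, with the others at 59.5 to 70.4 CPM.

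These libraries had the highest shares of reads on no gene, 39.9% and 38.2%, where the other 8 had 31.3% to 36.9%. Malat1, a nuclear long non-coding RNA, was at 7945 CPM in 5XFAD replicate 5, the highest of its group, and at 7087 CPM in 5XFAD;Neu cKO replicate 2, which lay within the range of its group. Meg3, another long non-coding RNA, was at 8664 and 7751 CPM in these libraries, the highest of its group in each. Over the 10 libraries, r with the share of reads on no gene was 0.69 for Malat1 and 0.77 for Meg3. Without 5XFAD replicates 5 and 2 it was 0.36 and 0.58. The part of these measures in the levels of Kalrn, Tiam1 and Dock4 was not tested.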

How the results depend on the processing

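Of all genes tested, 42 were called in the edgeR fit. DESeq2 called 73, edgeR without the filter on low counts 103, and edgeR with the replicate number as a block 112. The robust fit called 46. The share of calls that were higher in 5XFAD;Neu cKO was 26.2% in the edgeR fit, 39.8% without the filter and 42.0% with the replicate block. Leaving out 1 library gave 26 (without 5XFAD replicate 2) to 72 (without 5XFAD;Neu cKO replicate 1). Replicate numbers did not pair the libraries, with correlations of -0.081 to 0.040 between same-numbered libraries and 1 of 5 highest with its own number.

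Of the 10 genes, 0 were called in edgeR and 1, Trio, in DESeq2, without the filter, in the robust fit and with the replicate block. Left-out libraries gave 0 to 1, with Trio called without 5XFAD replicate 1, 5XFAD replicate 3 or 5XFAD;Neu cKO replicate 1. The set was chosen around Trio, and nothing rests on these calls. For Trio the log2 fold change ran from 0.31 without 5XFAD replicate 2 to 0.47. The median of the 10 ran from 0.026 to 0.085 with 1 library left out. The sign turned for Pak1, from -0.015 to 0.018 with the share of reads on no gene as a term and over -0.072 to 0.039 with 1 library left out, for Tiam1 over -0.072 to 0.068 and for Dock4 over -0.28 to 0.046. The causes were not tested. No pathway gene was called under any of these settings. Depth limits Tiam2 most, at 82 to 186 counts per library.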

Other observations

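Of the 10 genes, 9 span more than 100 kb. Genes of that length had a median log2 fold change of -0.02, with 46.1% higher in 5XFAD;Neu cKO among 2554 tested, against 0.0046 and 50.5% among 16600 shorter genes. Genes with a mean of 20 CPM or more, a level that all 10 reach, had a median of -0.0093, with 47.7% of 6264 higher and no overlap between the groups in 2.16%.

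Alignments of reads with several places numbered 2.76 to 3.34 per counted read in 5XFAD;Neu cKO and 3.10 to 3.98 in 5XFAD (exact two-sided permutation test over 252 relabellings, p = 0.0397, n = 5 per group). This was 1 of 4 such measures, and adjusted over them its p was 0.159. The exact p was 0.405 for reads on genes, 0.643 for the share of reads on no gene and 0.111 for the mitochondrial share. Beyond the share of reads on no gene, their part in the values of the 10 genes was not tested. Stretches of at least 76 bases with 90% identity or more to the last 1000 bases of a canonical transcript were found for Rac1 in Daglb, for Dock3 in 4930524O07Rik and for Tiam2 in Tfb1m, the opposite-strand neighbours named above, at 1000, 1000 and 145 bases. For Kalrn they were found in transcripts of Dtymk, Gm31614, 5930430L01Rik and Dennd4a, at 90 to 101 bases.

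Oligodendrocyte markers were lower in 7 of 7 genes, with a median log2 fold change of -0.28 and none with an adjusted p under 0.05 in edgeR, or in DESeq2 among the 6 that it gave one, while 4 had an unadjusted p under 0.05 in edgeR. Astrocyte markers were lower in 6 of 7, with 1 at an adjusted p under 0.05 in edgeR. Both sums overlapped between the groups, at 1756 to 2777 CPM in 5XFAD;Neu cKO and 1949 to 2865 CPM in 5XFAD for oligodendrocytes and 3934 to 4498 and 4039 to 4708 CPM for astrocytes.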
